A study of Drosophila montana with 23 samples.

Results

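The foraging gene, *for*, was measured in whole *Drosophila montana* females collected at 8 points of an artificial year, from summer through diapause and winter to spring. The gene was found on a custom expression array by the names of its probes. Of 1850 gene probes, 8 carried the name *for*, each printed as 8 spots, so that *for* was 1 gene of the 218 measured. The probe with the highest mean signal over 22 of the 23 arrays, for_2_1b, was taken as the main value and the other 7 as a check. The gene was itself chosen by a known result of these arrays, its higher level in 50-day-old than in 7-day-old diapausing females. That difference is therefore given below as a description without a test, and every other comparison that includes the 50-day-old diapausing females shares those arrays.

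The *for* gene encodes a cGMP-dependent protein kinase, a serine/threonine kinase that becomes active when the second messenger cyclic GMP binds to its regulatory region. In *D. melanogaster* its natural variants, rover and sitter, differ in how far larvae travel while feeding, and the kinase also bears on adult food intake, on energy stores, on learning and on how nerve and muscle tolerate heat. Reproductive diapause is an arrest of egg maturation before yolk is deposited. It is set in *D. montana* by the short days of late summer.

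RefSeq's annotation of the *D. montana* assembly ASM3504440v1 lists *for* as a protein-coding gene with 2 transcripts, on a scaffold with no assigned chromosome. It spans 47187 bases, against a median of 2277 bases for the protein-coding genes of that annotation. The array's probe names state no build, so no coordinates are given, and probe sequences were not used here. The gene was also measured by quantitative PCR in 150-day-old females, as a control by which other transcripts were scaled, and the primer pair is shown because it marks the stretch of *for* used for that. Both primers have 21 bases and are written 5′ to 3′, with no base marked.
for forward primer: gcttgaggagacgcactatca
for reverse primer: tcacgccttcgggagactcac

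All females came from the isofemale strain 175OJ8, kept in a climate chamber that imitated the day length and temperature of the strain's home site. Each array held the RNA of 2 pooled whole females, so the values average over all organs of the body. 7ND and 50ND females entered the chamber under long summer days and were 7 and 50 days old, in early and in full yolk deposition. 7D and 50D females entered under short autumn days and were 7 and 50 days old, at the initiation and the maintenance of diapause. 150D females were 150 days old and spent winter, in constant darkness at 4 °C, in diapause. 150ND females, of the same age and in the same winter, had mature ovaries because they passed their first 10 days in conditions that prevent diapause. 220D and 250D females had diapaused through winter and were taken 10 and 30 days after it ended, the former still without yolk and the latter with mature ovaries. Age, season and temperature changed together along this series, and each cohort is a single strain, so those factors cannot be told apart between ages. The 150ND females did not enter the chamber under long summer days with the 7ND and 50ND females, and shared the conditions of 150D females from early September. The ND groups therefore also differ in early rearing. Each group had 3 arrays, apart from 7ND with its 2 replicates, a and c.

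Levels are log2 intensities after quantile normalization of the 23 arrays. The array of 7ND replicate c stood apart. Its median spot intensity was 530.0, against 19.4 to 49.7 on the other 22 arrays. The R2 between the signal of the spike-in control RNAs and the amounts added was 0.660 there, against 0.991 to 0.998 elsewhere. On this array 4 of the 8 spots of the main *for* probe were marked non-uniform and left out. The array of 150ND replicate c differed from the 150D arrays by 0.52 on the log2 scale on average over genes, and from its own group by 0.76, whereas 150ND a and b differed by 0.59 and 0.66 from their own group and by 0.84 and 0.91 from 150D. Both arrays were kept, and the values without them are given where they bear on a result. A level of RNA in a whole female cannot tell a change in the number of cells that express *for* from a change in RNA per cell. The labels do not say that replicates came from separate cultures, so p-values measure the spread between these pools.

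The main probe was bright throughout. Each of its 8 spots was well above background on every array, no spot was saturated, and its raw intensity ran from 290 to 2516 over the 22 arrays. The 8 spots of an array differed little from each other, with a median SD of 0.048 on the log2 scale and a highest of 0.097. In 7ND females the level of *for* was 8.97 and 8.86 in replicates a and c. In 7D females it was 9.04, 9.06 and 9.18 in replicates a, b and c. In 50ND females it was 8.94, 8.96 and 8.83. These 3 groups lay close together.

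In 50D females the level of *for* was 10.98, 10.74 and 10.75 in replicates a, b and c, the 3 highest values of the experiment. In 150D females it was 10.71, 9.98 and 10.60, with replicate b well below its partners. In 150ND females it was 9.73, 10.24 and 10.24. In 220D females it was 10.11, 10.49 and 9.85. In 250D females it was 8.59, 8.30 and 8.30, the 3 lowest values of the experiment. The 12 arrays of 50D, 150D, 150ND and 220D females lay between 9.73 and 10.98, and the 11 arrays of 7ND, 7D, 50ND and 250D females between 8.30 and 9.18, with no overlap. These sets were drawn from the levels themselves and hold the 50D and 7D arrays by which the gene was chosen. With scaling on the spike-in RNAs they overlapped, at 9.79 on 50ND b and 9.02 on 150D b. With no scaling they also did, at 9.57 on 7ND a and 9.48 on 150D b.

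**Figure D1:**
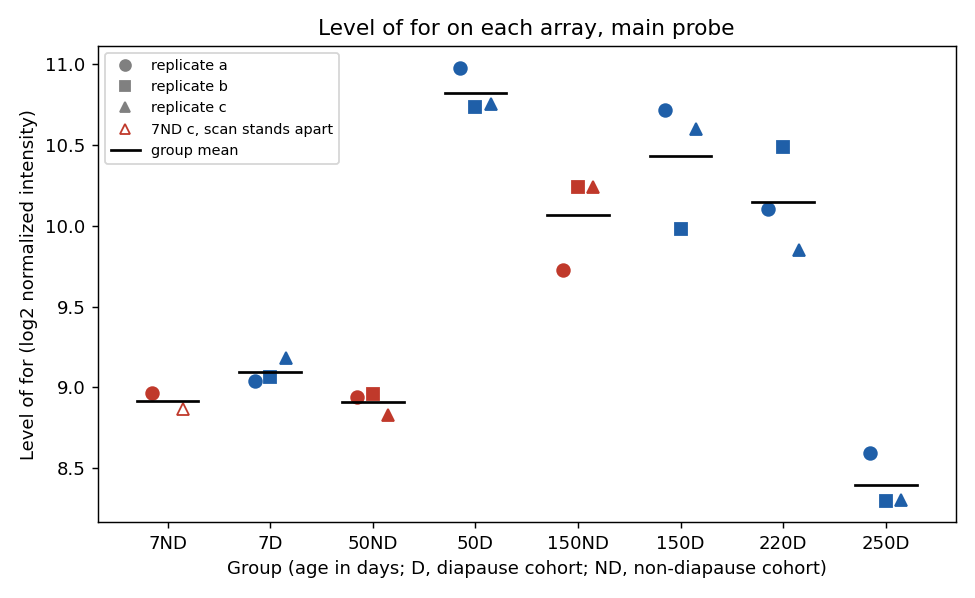
Level of *for* (main probe, log2 normalized intensity) on each of the 23 arrays by group, with blue for the diapause cohort, red for the non-diapause cohort, a marker shape per replicate letter and a black line at the group mean. The open triangle is the array of 7ND c, and the arrays of 50D, 150ND, 150D and 220D females all lie above those of the other groups.

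Ordered by mean level, the groups ran 50D with 10.82 ± 0.14 (SD, n = 3), 150D with 10.43 ± 0.39 (n = 3), 220D with 10.15 ± 0.32 (n = 3), 150ND with 10.07 ± 0.30 (n = 3), 7D with 9.09 ± 0.07 (n = 3), 7ND with 8.92 ± 0.07 (n = 2), 50ND with 8.91 ± 0.07 (n = 3) and 250D with 8.40 ± 0.17 (n = 3). The widest gap between neighbours was that of 150ND over 7D, 0.97 ± 0.23 (SE) on the log2 scale. Its limma adjusted p was 0.0016, but at 1.96-fold it fell short of the 2-fold change that a call also needed, and 44.5% of the 218 genes were called in this pair. The other 6 neighbouring pairs did not pass the test. In the pair 220D and 150ND, in which 18.3% of genes were called, *for* differed by 0.08, with a 95% interval of -0.40 to 0.56. The gap of 0.51 between 50ND and 250D, both with mature ovaries or full yolk deposition, had an interval of 0.03 to 0.99 and a limma adjusted p of 0.60 over all genes. No gene was called there, 0% of 218, and 14 genes had an unadjusted limma p under 0.05, *for* among them, whose arrays did not overlap. Of the 27 pairs of groups other than 50D with 7D, *for* was called in 14 (51.9%), and also in 14 when p was adjusted over all genes and all 28 pairs together. Over all 218 genes, 25.8% of the tests in these 27 pairs were calls. The pairs with 50D share the arrays by which the gene was chosen. The arrays of *for* did not overlap in 24 of the 28 pairs, also in 7D with 7ND and 150D with 50D, which were not called. How many of all genes had arrays without overlap was not counted.

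Diapausing and non-diapausing females were compared at 3 ages. At 7 and 50 days the former were autumn and the latter summer females, so that diapause and season cannot be told apart in these pairs, whereas 150D and 150ND females shared the same winter. At 50 days *for* was upregulated in diapausing females, by 1.91 ± 0.23 (SE) on the log2 scale, or 3.77-fold with a 95% interval of 2.70 to 5.26. The limma adjusted p was 6.2e-06, and 28.4% of the 218 genes were called in this comparison. Without 7ND c a larger share of genes was called, and the difference of *for* was 1.96. By the size of the difference *for* ranked 23 of 218. The p and the rank share the 50D arrays by which the gene was chosen, so neither is independent of that choice. All 3 of the 50D arrays exceeded all 3 of the 50ND arrays, and within the 3 slides, each holding 1 array of either group, the difference was 2.04, 1.78 and 1.93.

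At 7 days the difference of 7D over 7ND was 0.18 ± 0.26, with a 95% interval of -0.36 to 0.72 and a limma adjusted p of 0.54, in a comparison that called 39.4% of genes. It was 0.13 without 7ND c, when 7ND was a single array assumed to vary like the other groups. At 150 days, in winter, the difference of 150D over 150ND was 0.36 ± 0.23, with an interval of -0.12 to 0.84 and a limma adjusted p of 0.36, where 10.1% of genes were called (16.1% without 7ND c). Its arrays overlapped, and on slide 3, which carried the low 150D replicate b, the sign was turned (-0.26, against 0.36 and 0.99 on the other slides). Without 150ND c and 7ND c the difference was 0.46, and the limma adjusted p was 0.10.

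The difference between the cohorts was itself compared between ages. At 50 days it exceeded that at 7 days by 1.74 ± 0.34 on the log2 scale. This value holds the whole difference of 50D over 7D by which the gene was selected, and is given without a test. From 50 to 150 days the difference between the cohorts changed by -1.55 ± 0.32 (limma adjusted p = 0.0061). Here 4.13% of genes passed, or 8.72% without 7ND c. This comparison also uses the 50D arrays, and the season changed with the age, from summer against autumn at 50 days to a shared winter at 150 days. The 50ND and 150ND females differed in early rearing as well. Without 7ND c the values were 1.82 and -1.58. Under scaling on the spike-in RNAs the change from 50 to 150 days did not pass (limma adjusted p = 0.44).

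Along the diapause cohort, *for* rose early, stayed high through winter and fell late. The difference of 50D over 7D, the 1 by which the gene was selected, was 1.73 ± 0.23 on the log2 scale, or 3.31-fold, in a comparison that called 22% of the genes. From 50D to 150D, autumn to winter, the level differed by -0.39 ± 0.23, with a 95% interval of -0.87 to 0.09 and a limma adjusted p of 0.45 (6.88% of genes called). From 150D to 220D, winter to early spring, it differed by -0.29 ± 0.23, with an interval of -0.77 to 0.19 and a limma adjusted p of 0.58 (5.05% of genes called, or 9.17% without 7ND c). The lower bounds of the intervals allow a level of 0.55 and 0.59 times the earlier level, so the test did not show that the level stayed the same. With spike-in scaling the difference of 150D from 50D was -1.24 (limma adjusted p = 0.075).

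Between 220D and 250D, when the ovaries matured, *for* was downregulated by 3.36-fold. The difference was -1.75 ± 0.23 on the log2 scale, with an interval of -2.23 to -1.27 and a limma adjusted p of 1.5e-05, in a comparison that called 22% of genes. Without 7ND c a larger share of genes was called, and the difference of *for* was -1.79. The arrays of the groups did not overlap, as in 24 of the 28 pairs of groups. Within slides the difference was -2.19, -1.55 and -1.51.

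Among females that did not diapause, *for* at 7 and at 50 days did not differ beyond the error. The difference of 50ND over 7ND was -0.01 ± 0.26, with an interval of -0.54 to 0.53 and a limma adjusted p of 0.98, while 35.8% of all genes were called there. That last share rested on 7ND c, since without it 1 gene of 218 was called. From 50ND in summer to 150ND in winter *for* was upregulated by 1.16 ± 0.23 on the log2 scale, or 2.23-fold with an interval of 1.60 to 3.12. The limma adjusted p was 0.0017, and 11% of genes were called. Without 7ND c a larger share of genes was called, and the difference of *for* was 1.19. The 50ND and 150ND females also differed in early rearing, so season, age and rearing cannot be told apart here. The 3 winter arrays exceeded the 3 summer arrays, by 1.30, 0.76 and 1.41 within slides, and leaving out 150ND c with 7ND c gave 1.09. This call depended on the scaling of the arrays. With scaling on the spike-in RNAs the difference was 0.28 (limma adjusted p = 0.64).

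The other probes of *for* gave the same picture where they were bright. The probes for_2_0b and for_2_2b and 1 of the 2 probes named cDNA_for_2FR were well above background on every spot of every array. Over 22 arrays their levels followed the main probe with r between 0.989 and 0.996, as probes of 1 transcript on the same arrays share every sample. Their difference of 50D over 50ND was 1.80, 1.94 and 1.83 on the log2 scale, against 1.91 at the main probe. Their difference of 250D over 220D was -1.71, -1.85 and -1.76, against -1.75, and that of 150ND over 50ND was 1.20, 1.31 and 1.17, against 1.16.

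The bright probes disagreed on 1 array. On 7ND c the level was 8.86 at for_2_1b, 7.42 at for_2_0b, 10.68 at for_2_2b and 4.73 at cDNA_for_2FR, whereas on 7ND a it was 8.97, 8.40, 8.39 and 8.69. With 7ND c included, the difference of 7D over 7ND therefore ran from -0.97 to 1.96 over the 4 bright probes. Without it, the same difference ran from -0.02 to 0.18. The excess of the difference between the cohorts at 50 over that at 7 days was then between 1.73 and 1.89 at all 4 bright probes.

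The remaining 4 probes were dim. They were the 3 probes with the mark rc_ in their names and the other cDNA_for_2FR probe. The strand that each probe reads was not checked, since probe sequences were not used. The 4 probes had a raw signal between 3.6 and 46.0 over the 22 arrays, and the dim cDNA_for_2FR probe was well above background on most of its spots on 15 of 23 arrays. At rc_for_2_0b, rc_for_2_1b and the dim cDNA_for_2FR the pattern followed the main probe, with r of 0.80, 0.90 and 0.92. The probe rc_for_2_2b did not, with r of -0.42. Its mean level was 4.72 in 50ND and 4.63 in 250D females, its 2 highest groups, against 4.16 in 50D and 3.64 in 220D females. On the linear scale the group means were 22.9, 22.4, 17.5 and 12.7, near the floor of the array. What this probe binds was not tested.

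**Figure D2:**
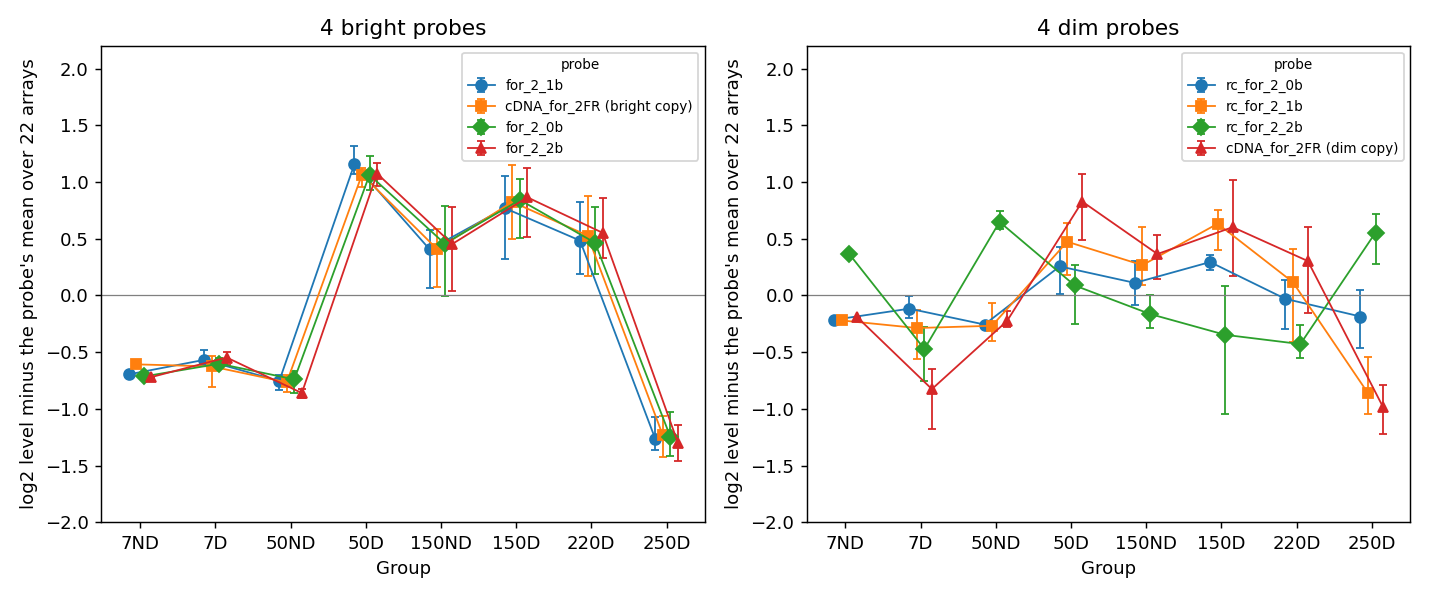
Level of each of the 8 *for* probes by group, as log2 normalized intensity minus the probe's own mean over the 22 arrays without 7ND c, with points at the group mean and bars from the lowest to the highest array. The 4 bright probes (left) lie on top of each other, while of the 4 dim probes (right) rc_for_2_2b is highest in 50ND and 250D females, where the others are low.

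Since RNA in whole females may differ in total, the differences were set beside those under other scalings. The upregulation in 50D over 50ND females was 2.04 with scaling on each array's 75th percentile, 1.96 in the authors' own normalized table, 1.73 with spike-in scaling and 2.09 with no scaling, and passed the test each time. The downregulation from 220D to 250D was -1.82, -1.79, -1.65 and -1.60 in the same order, and also passed each time. The difference of 150D from 50D, which did not pass under any of these, varied most among the steps within the diapause cohort that were tested, from -0.39 with quantile normalization to -1.24 with spike-in scaling.

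**Figure D3:**
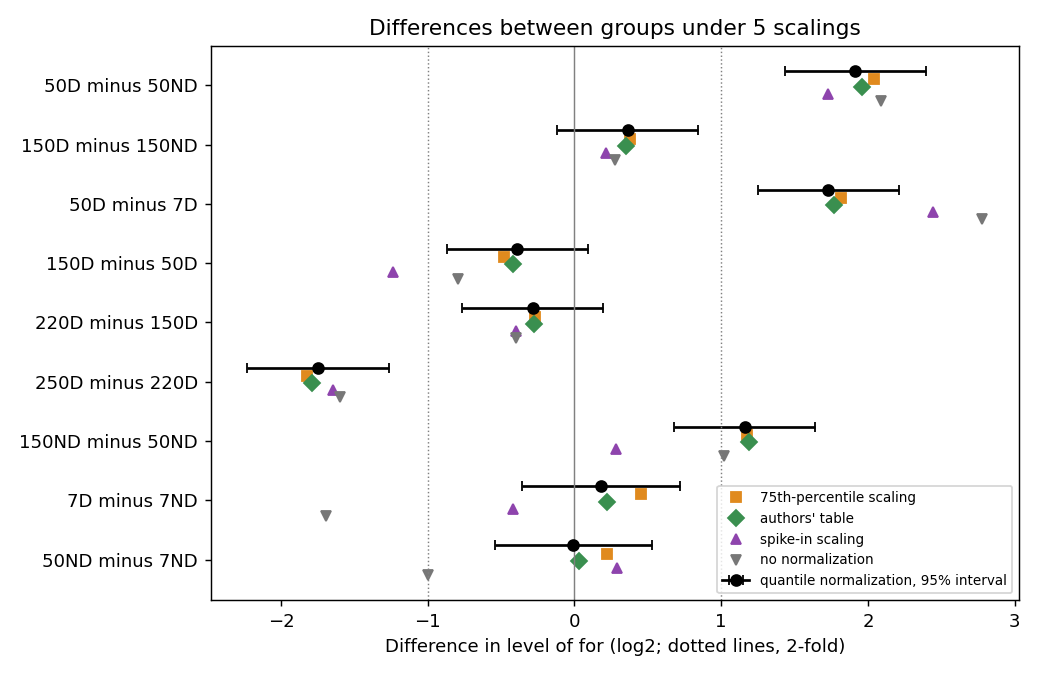
Difference in the level of *for* between groups (log2, horizontal axis) for 9 comparisons, with black points and 95% intervals from the quantile-normalized fit and coloured markers for the same difference under other scalings. The differences 50D minus 50ND and 250D minus 220D keep their size under each scaling, while 150ND minus 50ND falls to 0.28 with spike-in scaling.

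The genes *for*, *norpA* and *RpL11* were picked as controls from all samples of these arrays and then used in quantitative PCR of D and ND females aged 150 days. In that pair the arrays gave a difference of 0.36 for *for*, 0.05 for *norpA* (limma adjusted p = 0.98) and 0.24 for *RpL11* (limma adjusted p = 0.56) on the log2 scale. The gene *norpA* encodes the phospholipase C of phototransduction and *RpL11* a protein of the large ribosomal subunit. Over the 22 arrays the mean level of *for* ranged over 2.42 on the log2 scale, from 250D, its lowest group, to 50D, its highest. The median range of the 218 genes was 1.67, so that *for* ranked 169 from the smallest range. Both the range and the rank of *for* include the 50D arrays by which the gene was chosen. The range of *norpA* was 1.10, rank 41, and that of *RpL11* was 1.52, rank 88. The rank of *for* was 165 with 75th-percentile scaling, 172 with none, 188 with spike-in scaling and 169 in the authors' table, whereas *RpL11* moved to rank 19 with 75th-percentile scaling.

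Of the 8 comparisons between groups other than 50D with 7D, *for* was called by limma in 3, *norpA* in 2 and *RpL11* in 0. For *RpL11*, 3 of the 8 had an unadjusted limma p under 0.05. The share of all genes called ran from 5.05% in 220D against 150D to 39.4% in 7D against 7ND. The call of *for* in 50D over 50ND shares the arrays by which the gene was chosen, so the counts do not rank the 3 genes fairly. Both calls of *norpA* were against 7ND and rested on 7ND c, where its level was 2.99 against 6.63 on 7ND a. Without that array its difference of 7D over 7ND was 0.69 (limma adjusted p = 0.084). In the same fit *norpA* differed by -0.75 from 220D to 250D (limma adjusted p = 0.011) and by 0.77 from 50ND to 150ND (limma adjusted p = 0.019), in the direction of *for* and under 2-fold. The largest difference of *RpL11*, 0.97 from 7D to 50D, had a limma adjusted p of 0.0025 and was under 2-fold. Taken within each array, with no scaling between arrays, *for* rose from 50ND to 50D by 1.67 relative to *norpA* and by 1.92 relative to *RpL11* on the log2 scale. From 220D to 250D it changed by -0.90 relative to *norpA* and by -2.33 relative to *RpL11*. These ratios show unequal change of the genes and do not say which of them moved.

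**Figure D4:**
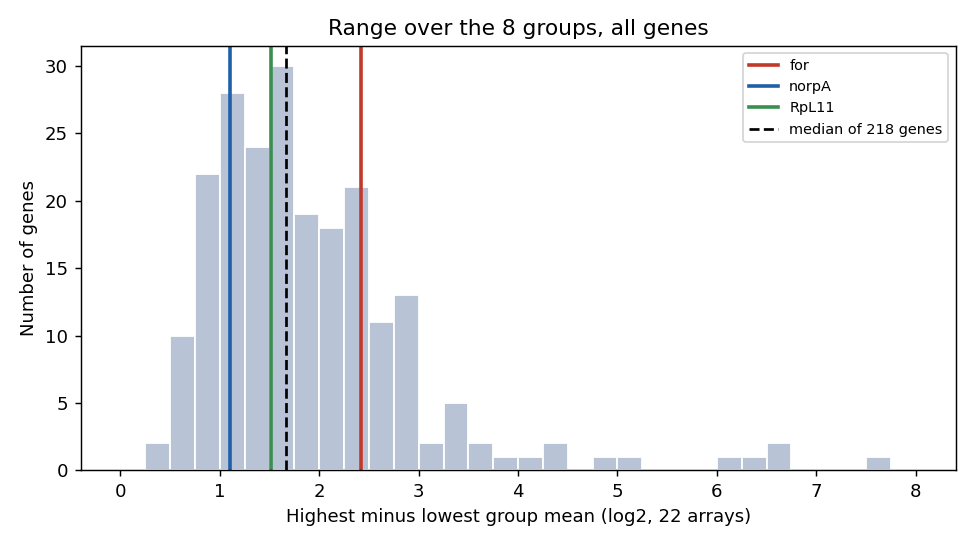
Histogram of the range of the 8 group means (log2, horizontal axis) for the 218 genes over 22 arrays, with lines at *for*, *norpA* and *RpL11* and a dashed line at the median gene. The range of *for*, 2.42, lies above the median of 1.67, and those of *norpA* and *RpL11* lie below it. The highest group of *for* is 50D, whose arrays are those by which the gene was chosen.

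The genes whose levels were most like those of *for* were found by Pearson's r over the 22 arrays. They were *Hsr_omega* (r = 0.91, Spearman's rho = 0.81), a long non-coding RNA of the heat shock response, *CG9747* (0.90, rho = 0.85), a fatty acid desaturase, *per* (0.88, rho = 0.81), the period gene of the circadian clock, *stv* (0.85, rho = 0.81), the chaperone partner starvin, and *shi* (0.85, rho = 0.82), the dynamin of vesicle uptake. Over the 8 group means their r was between 0.88 and 0.94. The arrays share the groups and fall into an upper and a lower set, so these values describe the pattern over groups and carry no p.

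Within the 12 upper arrays r was 0.06 for *Hsr_omega*, and within the 10 lower arrays other than 7ND c it was 0.79. The sets were drawn by the level of *for*, which narrows its range within each, so these r cannot say where the likeness arose. For *CG9747* r was 0.57 in the upper and 0.51 in the lower arrays, and for *stv* it was -0.16 and 0.83. The r of *per* was 0.28 and 0.54, and that of *shi* 0.19 and 0.71. The mean level of *Hsr_omega* was 11.47 in 50ND, 13.36 in 50D, 13.44 in 150ND, 13.42 in 220D and 11.19 in 250D females. Unlike *for*, it was highest in 150D females, with 13.97, and *CG9747*, *per* and *shi* likewise had 150D or 220D as their highest group.

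The genes least like *for* were *CG34366* (r = -0.91, rho = -0.86), *Jon25Bi* (-0.88, rho = -0.86), a digestive serine protease, *cac* (-0.79, rho = -0.79), a voltage-gated calcium channel of nerve terminals, *Adh* (-0.78, rho = -0.73), alcohol dehydrogenase, and *Ace* (-0.77, rho = -0.70), acetylcholinesterase. Their levels ran against those of *for* by the way they were chosen, so no test is given for them. With 7ND c included, 7 of these 10 genes were again among the 5 most and 5 least like *for*. Without normalization 7 of the 10 also were, but not *CG9747* (r = 0.79), *cac* (-0.31) and *Ace* (-0.42).

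**Figure D5:**
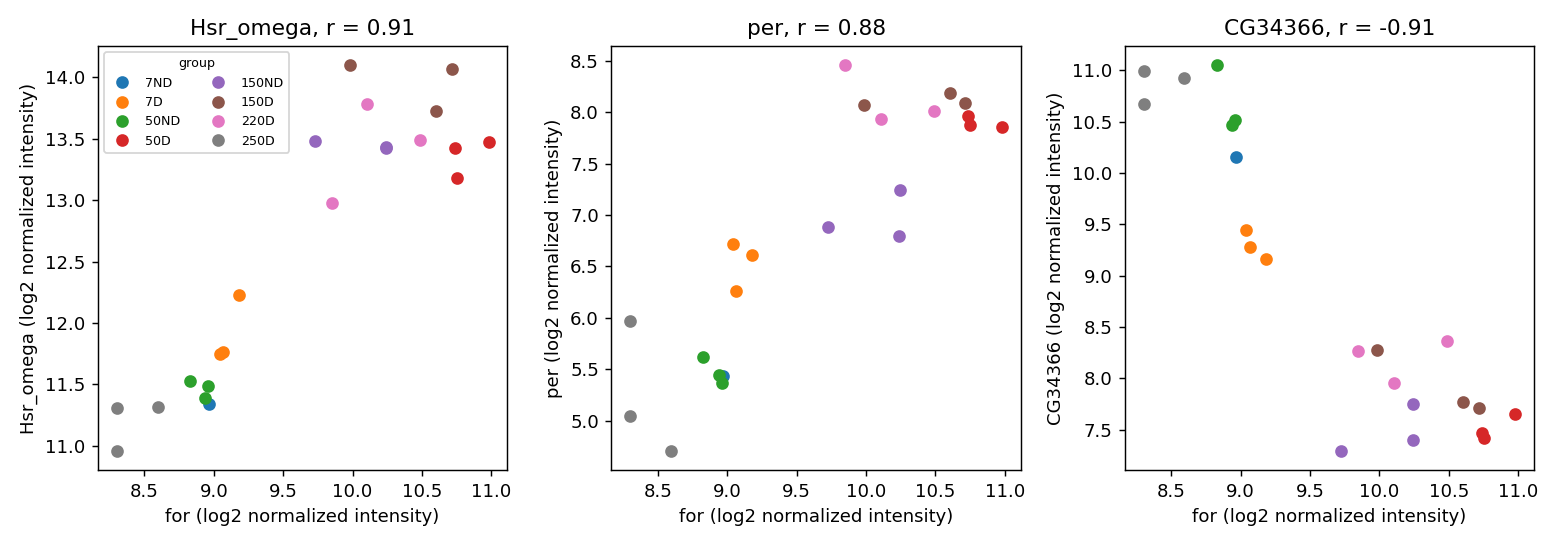
Level of *Hsr_omega*, *per* and *CG34366* against that of *for* (both log2 normalized intensity), with 1 point for each of the 22 arrays without 7ND c, coloured by group. *Hsr_omega* and *per* are high and *CG34366* is low on the arrays where *for* is high, in 50D, 150ND, 150D and 220D females.

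The other genes of cyclic nucleotide signalling were taken from a list of 7. At 50 days 1 of them was called higher and 0 lower in diapause, where 28.4% of all genes were called, 39 higher and 23 lower. The median difference of the 7 was -0.39, against 0.13 for all genes. The gene called was *rut*, the adenylyl cyclase rutabaga, which makes cyclic AMP in learning. It rose by 1.66 ± 0.42 on the log2 scale (limma adjusted p = 0.0073) and its r with *for* was 0.77, the tenth highest of 217 genes. *G-salpha60A*, the stimulatory G protein that acts on adenylyl cyclase, differed by -0.91 (limma adjusted p = 0.070). *Pka-R2*, a regulatory subunit of the cyclic AMP-dependent kinase, differed by -0.32 (limma adjusted p = 0.67). *Nf1*, a Ras regulator, had signal well above background on only 2 arrays.

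From 220D to 250D, 0 of these 7 genes were called higher and 1 lower (22% of all genes were called, 19 higher and 29 lower), with a median of -0.0035, against -0.10 for all genes. From 50ND to 150ND, 1 was called higher and 0 lower (11% of all genes), with a median of 0.16, against 0.03. In 150D against 150ND females 0 of 7 were called by limma (1 at an unadjusted p under 0.05; 10.1% of all genes were called), and the median was -0.09, against 0.12 for all genes. At 7 days without 7ND c, the median of the 7 genes was -0.07, against 0.05 for all genes, and *rut* differed by 1.23.

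Of 16 other serine/threonine kinases, 2 were called higher and 1 lower in the 50D group relative to 50ND, in the comparison that called 28.4% of all genes. Their median was -0.32, against 0.13 for all genes. *inaC*, the eye's protein kinase C, was higher by 1.97 (limma adjusted p = 0.0093), and by 1.70 in 7D over 7ND without 7ND c. *mnb*, the kinase minibrain, differed by -2.46 ± 0.71 at 50 days (limma adjusted p = 0.015), and by -2.91 in 7D over 7ND without 7ND c. The median of the 16 kinases at 7 days without 7ND c was -0.55, against 0.05 for all genes. *Mpk2*, a p38 stress kinase, differed by 0.85 (limma adjusted p = 0.22) and *sgg*, the kinase shaggy, by 0.44 (limma adjusted p = 0.63). From 220D to 250D, 0 of the 16 were called higher and 1 lower, where 22% of all genes were called. From 50ND to 150ND, 0 were called by limma in either direction (11% of all genes), and 1 had an unadjusted p under 0.05.

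Of the 5 genes of insulin and energy signalling, 0 were called by limma between 50D and 50ND females, where 28.4% of all genes were called. An unadjusted p under 0.05 was found for 1, and the median was 0.35, against 0.13 for all genes. All 5 had a positive r with *for*, with a median of 0.60, where 122 of 217 genes were positive and the median was 0.10. *Thor*, the translation repressor 4E-BP, had r of 0.60, and its level in 150D exceeded that in 150ND females by just under the 2-fold required (limma adjusted p = 0.025). *SNF4Agamma*, the gamma subunit of the AMP-activated kinase, had r of 0.66 and differed by 0.15 at 50 days (limma adjusted p = 0.73). *ilp7*, an insulin-like peptide, and *Pi3K92E*, a PI 3-kinase, were well above background on 14 and 13 arrays. At 7 days without 7ND c, *Pi3K92E* was called lower in 7D females, by -1.85 on the log2 scale.

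Markers of tissues in the whole female moved in some of the same comparisons as *for*. Of 16 markers, 15 were well above background on every array, and the sodium channel gene *para* was so on 10. Between 50D and 50ND females, where *for* was upregulated and 28.4% of all genes were called (39 higher, 23 lower), 3 of 6 photoreceptor markers were called higher and 0 lower, with a median of 0.97. In the same comparison 2 of 3 ovary markers were called lower, with a median of -1.01. The gut marker *Jon25Bi* was lower by -2.71, and of 4 neuron markers 1 was called in each direction. Of the 2 muscle markers 0 were called by limma, and 1 had an unadjusted p under 0.05. The summed linear level of the ovary markers was 21411 to 26398 on the 50ND arrays and 11482 to 13061 on the 50D arrays.

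Between 250D and 220D females, where *for* was downregulated and 22% of all genes were called, 3 of 6 photoreceptor markers were called lower, 1 of 3 ovary markers was called higher and *Jon25Bi* was higher by 3.11. The muscle marker *Mhc* was called lower (-1.35), and of the neuron markers *syt* was called lower (-1.53) and *cac* higher (1.33). The photoreceptor markers averaged 8.97 to 9.57 on the 250D and 9.74 to 10.50 on the 220D arrays. In 7D against 7ND females *for* was not called, while 39.4% of all genes were called, 56 higher and 30 lower. All 3 ovary markers were called lower there and 3 of 6 photoreceptor markers higher. Without 7ND c the median of the photoreceptor markers was 1.55, against 0.05 for all genes. In 150D against 150ND females, where 10.1% of all genes were called, 2 of 3 ovary markers were called lower and 1 of 2 muscle markers higher. On 150ND c the ovary markers averaged 10.77, against 11.85 and 12.27 on 150ND a and b and 10.55 to 10.94 on the 150D arrays. Between 150ND and 50ND females, where *for* was upregulated and 11% of all genes were called, *Jon25Bi* was called lower by limma. Of the other 15 markers 0 were called, and 3 had an unadjusted limma p under 0.05. Between 50D and 7D females, the comparison by which *for* was selected, the muscle markers *sls* and *Mhc* differed by -3.25 and -2.04, *Jon25Bi* by -3.27, and the ovary markers *Hsp83* and *Fmr1* by 1.56 and 1.18. Both groups were diapausing, so the ovary markers alone do not measure ovary content. From 220D to 250D, when the ovaries matured, *Hsp83* differed by 0.03, *Fmr1* by 0.78 and *Histone_H3.3A* by 1.15. The part of any tissue in the level of *for* was not tested.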

How the data were processed

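Custom 1-colour Agilent arrays of *D. montana* candidate genes were scanned by the authors, who deposited each array's Feature Extraction 10.7.1.1 output (spot intensity values) and a table of normalized intensity values. The genes, lists and comparisons were chosen with earlier results of these data known. The background-corrected intensities of 14800 gene spots on 23 arrays were taken to log2 and quantile-normalized, as in the study's methods. Spots marked non-uniform or as population outliers were left out, unless all 8 spots of a probe were marked (43 cases), and the rest were averaged. Each of 218 genes was represented by its brightest probe, chosen without 7ND c. The 8 groups were compared in 1 fit with limma 3.58.1 (R 4.3.3), with Benjamini-Hochberg adjustment over genes. Calls required an adjusted p under 0.05 with at least a 2-fold change, and for the change of the difference between cohorts with age the adjusted p alone. The fit was tested on simulated data. The 2 or 3 arrays of a group limit the precision.

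Alternatives were 75th-percentile, spike-in (7 probes) or no scaling, the authors' table, normexp background correction with an offset of 50, means over probes, a filter on dim probes, slide or replicate letter as a block, only the groups compared, and each array left out. The authors' table correlated with its own scans at 0.990 to 0.9996 on the log2 scale, and at 0.698 for 7ND c. Named genes were *for*, the other 2 control genes, the 5 most and 5 least like *for*, and up to 4 genes of each pathway list with the largest difference between diapausing and non-diapausing females of 1 age. The labels do not say that replicate letters pair arrays. Same-letter arrays deviated together in 150ND and 50ND (3 correlations over genes, 0.28 to 0.60). In no other comparison with 3 pairs were all above 0.1.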

Additional observations from a re-analysis of the deposited data

Results flagged for a closer look

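The difference in *for* between the diapausing and non-diapausing cohorts changed by -1.55 on the log2 scale from 50 to 150 days, by a test of the change itself. It rests in part on the 50D arrays by which the gene was chosen, and season changed with age. The 50ND and 150ND females also differed in early rearing. Groups of 3 arrays or fewer were not tested for a single outlying array.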

How the results depend on the processing

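The calls of 50D over 50ND and of 250D against 220D held under all 21 alternatives each. The former shares the 50D arrays by which the gene was chosen under each of them. The difference of 50ND from 7ND, near 0, turned its sign under 75th-percentile scaling (0.22), spike-in scaling (0.29), the authors' table (0.031), the mean of the probes without the rc_ mark (0.43) or of all probes (0.25), the slide block (0.0067) and the replicate block (0.00043), and ran from -0.060 to 0.045 when single arrays were left out. Without any scaling 7D minus 7ND was -1.69 and passed as a call of lower level in 7D females (limma adjusted p = 0.0012). There 7ND c was the brightest array, but the unscaled log2 level on 7ND a, 9.57, also exceeded those on the 7D arrays, 8.18 to 8.63. With spike-in scaling 7D minus 7ND was -0.42. The difference 50D minus 7D moved to 2.78 with no scaling, 2.44 with spike-in scaling and 1.26 over all probes averaged. The call of 150ND over 50ND was lost with no scaling (1.02), spike-in scaling (0.28) or all probes averaged (0.69). The change of the difference between cohorts from 50 to 150 days was no longer called with spike-in scaling (-1.52) or the mean of all probes (-0.88). That from 7 to 50 days, which has no test, moved to 3.78 with no scaling, 2.15 with spike-in scaling, 1.24 over the probes without rc_ and 1.01 over all probes. With spike-in scaling 8 of the 27 pairs were called. The cause was not tested, except that a mean over all probes holds the dim ones. Leaving out each array changed no other call. It gave 0.13 to 0.23 for 7D minus 7ND, 0.19 to 0.59 for 150D minus 150ND, -0.53 to -0.17 for 150D minus 50D and -0.51 to -0.13 for 220D minus 150D. The replicate block changed no call (1.91 for 50D minus 50ND). The same-letter correlations lay between -0.49 and 0.60. Dim probes gave signals near background, which limits what rc_for_2_2b can show.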
